A study of Physcomitrium patens with 10 samples.

Results

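The miR166 family is one of the microRNA families that mosses share with flowering plants. It was taken here as every miRNA name starting with ppt-miR166 in the deposited tables, which gave 13 names, miR166a to miR166m, of 280 in all. The letters number precursors, and several precursors can give the same or nearly the same mature strand. All 13 names had a level above the minimum used for comparisons in every state.

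Small RNAs of 18 to 30 nt were sequenced from the moss Physcomitrium patens, grown on BCD medium and sampled as gametophores, its leafy shoots. The labels name no transgene, mutation or added compound and give water status as the difference between groups. These were hydrated (HD), dehydrated to a degree called mild or moderate (MDH), severely dehydrated or desiccated (SDH), partially rehydrated or recovered (PRE) and fully rehydrated or recovered (FRE) gametophores. By their titles the 10 samples form 5 states with 2 biological replicates each, although the treatment field differs from the title for 7 of the 10. The deposited tables hold 1 authors' value per state, in RPM (reads per 1000000), and their headers name no replicate. How the 2 replicates, numbered 2 and 3 in the titles, entered that value is not stated. No difference given here could be set against replicate error, and sequencing depth is unknown. RNA came from whole gametophores, where fewer cells that make a miRNA and less of it per cell cannot be told apart.

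In land plants miR166 pairs with transcripts of class III homeodomain leucine zipper (HD-ZIP III) genes, at a site in the part that codes for the START domain, and directs their cleavage. In flowering plants HD-ZIP III proteins specify the upper side of leaves and act in the shoot meristem and vascular tissue, and miR166 restricts where they are made. In Physcomitrium the HD-ZIP III genes act in the development of the leaf-like organs of the gametophore. Levels of HD-ZIP III transcripts are not part of the small RNA tables.

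The 13 names gave 3 distinct profiles over the 5 states, where names belong to 1 profile if their levels lie within 5% or 0.5 RPM of each other in every state. The first profile held the 9 names miR166a to miR166i, the second held miR166j, miR166k and miR166l, and miR166m stood alone. miR166a stood at 1749 RPM in HD, 1349 and 1539 in MDH and SDH, and 1236 and 1349 in PRE and FRE. miR166b, miR166c, miR166d and miR166g had the same values as miR166a to the last deposited digit in all 5 states, and miR166e, miR166h and miR166i differed from it by at most 0.7 RPM. These are therefore not separate observations.

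miR166f was the one name of the first profile with a gap to the others. It stood at 1703 RPM in HD, 1307 and 1496 in MDH and SDH, and 1190 and 1310 in PRE and FRE. That was 46.5, 42.1, 42.5, 46.0 and 38.4 RPM below miR166a, or 2.66% to 3.72% of its level, and the gap changed little between states.

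The second profile was lower. miR166j stood at 1278 RPM in HD, 957 and 1103 in MDH and SDH, and 553 and 687 in PRE and FRE. miR166k was identical to it, and miR166l differed by at most 0.5 RPM. Both recovered states lay well below all 3 others in this profile, whereas the deposited RPM of miR166a in FRE was level with that in MDH.

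The profile of miR166m was the highest. miR166m stood at 3242 RPM in HD, 2411 and 2741 in MDH and SDH, and 2427 and 2623 in PRE and FRE. HD was the highest state for miR166a, miR166j and miR166m alike, and PRE the lowest for miR166a and miR166j, both with the deposited RPM and after median-of-ratios scaling of the states. The lowest state of miR166m was MDH with the deposited RPM and PRE after that scaling. The order of the states between is not settled: SDH came next to HD with the deposited RPM and MDH after scaling, for all 3 of these names.

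**Figure D1:**
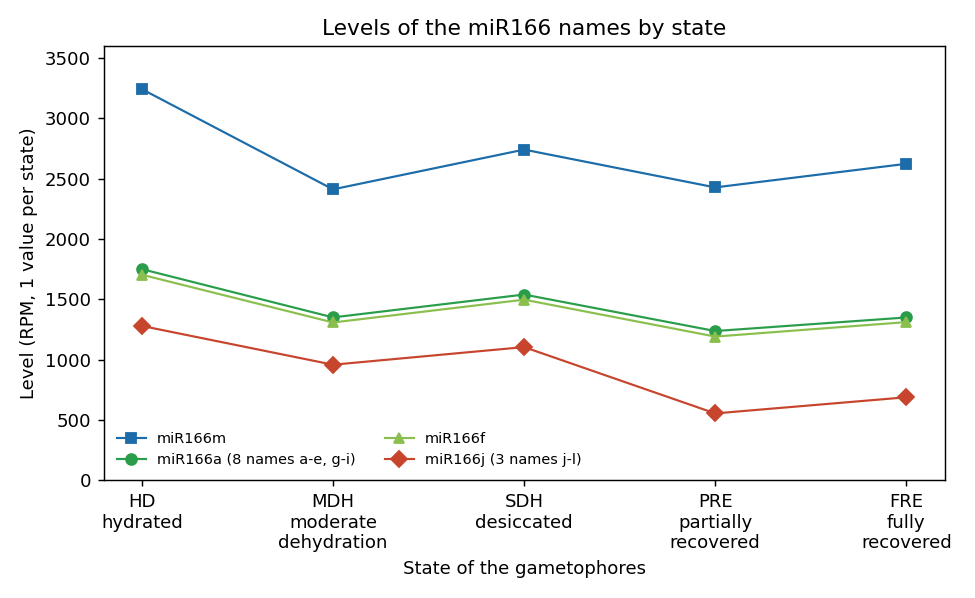
Level of the miR166 names in RPM (vertical axis, linear from 0) in each of the 5 states (horizontal axis). Each point is 1 authors' value, with no error bar because no value per replicate is given. Lines join the values of 1 name. From SDH to PRE miR166j falls from 1103 to 553 RPM and miR166m from 2741 to 2427 RPM.

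Among all 280 names miR166m ranked between 21 and 23 by level in the 5 states and miR166a between 30 and 39, while miR166j ranked between 46 and 49 in HD, MDH and SDH, 66 in PRE and 57 in FRE. Near-identical copies take separate places in these ranks, and miR166j stood below each of the 9 names miR166a to miR166i. Adaptor ligation is not equally efficient for all small RNA sequences, so ranks between names are less certain than a difference of 1 name between states. The 13 names summed to 22774 RPM in HD, 17383 and 19856 in MDH and SDH, and 15166 and 16784 in PRE and FRE, a sum that counts near-identical copies repeatedly. With 1 value per profile the sum was 6269, 4717, 5382, 4216 and 4658 RPM. The RPM of all 280 names also summed to less outside HD, from 831487 in HD down to 407334 in PRE, so that the 13 names held 2.74% of it in HD, 3.45% and 3.16% in MDH and SDH, and 3.72% and 2.94% in PRE and FRE. That total also counts near-identical copies repeatedly, so it is not a share of reads. With 1 value per set of copies the family held 1.39% in HD and 1.65% and 1.54% in MDH and SDH. It held 1.86% and 1.49% in PRE and FRE. By either measure the family was lower per 1000000 reads in each of the 4 other states than in HD. Its share of the summed RPM was larger there than in HD. Both shares also depend on the miR535 family, the largest part of the total over names in HD. Its names summed to 481066 RPM there, again with copies not merged. The same names summed to 227141 and 294196 RPM in MDH and SDH, and 181887 and 316284 in PRE and FRE. A share without miR535 was not computed. The part of that shrinking total in the differences below was not tested.

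The first comparison asked how the family stood in dehydrated against hydrated gametophores. Differences are given as log2((RPM + 1)/(RPM + 1)), and a name counts as changed past 2-fold if its higher state reached 3 RPM. Plain folds are ratios of the RPM values. In MDH all 3 profiles were below HD by a similar ratio, with log2 fold changes of -0.37 for miR166a, -0.42 for miR166j and -0.43 for miR166m. None of the 13 names passed 2-fold, where 24.4% of 209 names tested were lower and 11% higher. The median log2 fold change was -0.37 over the 13 names, or -0.42 over the 3 profiles. It was -0.37 over all names tested, a value set by the near-identical miR166 copies themselves, and -0.43 over names of other families. Scaling by median-of-ratios shifted every log2 fold change of this comparison by 0.35 and left miR166a, miR166j and miR166m at -0.02, -0.07 and -0.08. Its factors are themselves medians over names, with the near-identical miR166 copies included, so this scaling is not independent of the family.

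In SDH the log2 fold changes were -0.18 for miR166a, -0.21 for miR166j and -0.24 for miR166m, and again none of 13 names passed 2-fold, where 13.5% of 215 names were lower and 18.6% higher. The medians were -0.18 over the 13 names, 0.02 over all names and 0.11 over names of other families. After median-of-ratios scaling, miR166a, miR166j and miR166m stood at -0.21, -0.24 and -0.27, farther from HD than in MDH, whereas with the deposited RPM they were nearer to it. SDH against MDH gave 0.19, 0.20 and 0.18 for miR166a, miR166j and miR166m with the deposited RPM, and -0.19, -0.18 and -0.20 after median-of-ratios scaling, so these data give no direction between the 2 dehydrated states. No member passed 2-fold there, where 0.966% of 207 names were lower and 16.4% higher. All 3 profiles stayed within 0.06 of each other on the log2 scale in these 3 comparisons.

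Rewetting was then examined, by setting the recovered states against HD and PRE against SDH. In PRE against HD the 3 profiles came apart. miR166j was 2.31-fold lower (log2 fold change -1.21), miR166a was 1.42-fold lower (-0.50) and miR166m was 1.34-fold lower (-0.42). The names past 2-fold were miR166j, miR166k and miR166l, which is 3 of 13 names or 1 of 3 profiles, where 18.8% of 213 names tested were lower and 21.6% higher. That share is near the background and does not set the family apart. The median log2 fold change was -0.50 over the 13 names, -0.19 over all names tested and -0.10 over names of other families. Of the names tested, 12.7% lay below miR166j. Scaling by median-of-ratios shifted this comparison by 0.11 and left miR166j at -1.09, still past 2-fold.

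In FRE against HD the order of the profiles was the same and the differences were smaller. miR166j was 1.86-fold lower (log2 fold change -0.90), miR166a 1.30-fold lower (-0.38) and miR166m 1.24-fold lower (-0.31). None of 13 names passed 2-fold, where 12% of 209 names were lower and 15.3% higher. At 1.5-fold miR166j, miR166k and miR166l counted as lower, 3 of 13 names, where 23% of all names did. The medians were -0.38 over the 13 names and -0.10 over all names, and scaling shifted this comparison by 0.12 to -0.77, -0.25 and -0.19 for miR166j, miR166a and miR166m. FRE against PRE gave 0.31 for miR166j, 0.13 for miR166a and 0.11 for miR166m, none past 2-fold, where 9.81% of 214 names were lower and 7.01% higher.

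The step from SDH to PRE held most of the separation of miR166j. miR166j was 1.99-fold lower in PRE than in SDH (log2 fold change -0.99), just short of 2-fold, whereas miR166a was 1.24-fold lower (-0.32) and miR166m 1.13-fold lower (-0.18). Of 211 names tested 3.32% were 2-fold lower and 6.16% higher, and 3.32% lay below miR166j, so its difference was at the low edge of all names in this step. None of the 13 names passed 2-fold. At 1.5-fold miR166j, miR166k and miR166l did, 3 of 13 names, where 20.9% of all names were lower. Scaling by median-of-ratios shifted the step by 0.14 and left miR166j, miR166a and miR166m at -0.85, -0.17 and -0.03.

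**Figure D2:**
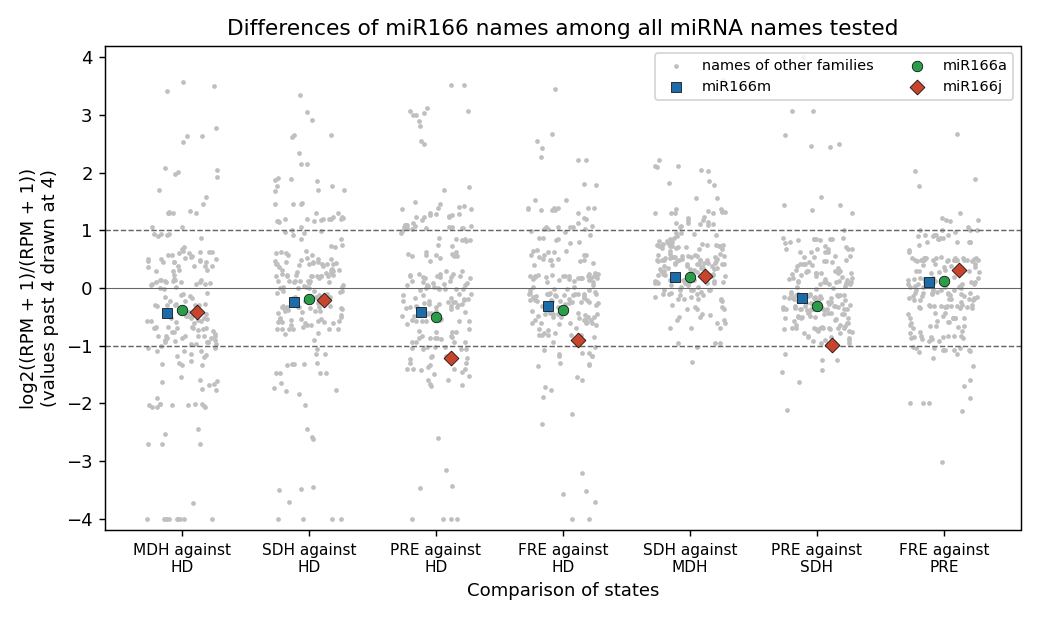
Difference on the log2((RPM + 1)/(RPM + 1)) scale (vertical axis) for each of 7 comparisons of states (horizontal axis), with miR166m, miR166a and miR166j as coloured points, names of other families as grey points and dashed lines at 2-fold. The 3 coloured points lie together in MDH and SDH against HD, and miR166j lies apart in PRE against HD at -1.21 and in PRE against SDH at -0.99.

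Set beside other abundant miRNAs, the profiles of miR166a and miR166m lay nearer to HD than the median in PRE. In PRE against HD, 26 sets of names of other families reached 1000 RPM, and their median log2 fold change was -0.96, with 13 of 26 lower and 3 higher past 2-fold. miR166a lay above 18 of these 26, miR166m above 19 and miR166j above 10. In PRE against SDH, 25 such sets had a median of -0.69, and miR166a lay above 18 of them, miR166m above 20 and miR166j above 4.

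Ratios between members within 1 state do not depend on how the states were scaled. The ratio of miR166j to miR166a was 0.731 in HD, 0.709 and 0.717 in MDH and SDH, and 0.448 and 0.509 in PRE and FRE. The hydrated and both dehydrated states were close to each other, and both recovered states were apart from them. The ratio of miR166m to miR166j went from 2.54, 2.52 and 2.48 in HD, MDH and SDH to 4.39 in PRE and 3.82 in FRE. The ratio of miR166m to miR166a changed less, at 1.85, 1.79, 1.78, 1.96 and 1.94. Of the summed level of the 3 profiles miR166j took 20.4% in HD, 20.3% and 20.5% in MDH and SDH, and 13.1% and 14.7% in PRE and FRE.

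In HD, MDH and SDH the level of miR166m was close to that of miR166a and miR166j added together. The sums of those 2 names were 3028 RPM in HD, 2306 and 2642 in MDH and SDH, and 1789 and 2036 in PRE and FRE. miR166m exceeded them by 214 RPM in HD, 105 and 98.8 in MDH and SDH, and 638 and 587 in PRE and FRE. That excess was 6.60%, 4.35% and 3.61% of miR166m in HD, MDH and SDH, and 26.3% and 22.4% in PRE and FRE. The gap between miR166a and miR166j was also wider after rewetting, at 471, 392, 436, 683 and 662 RPM in the order HD, MDH, SDH, PRE and FRE. How reads that match several family members were counted is not given in the sources used here, so whether some reads entered more than 1 of these values was not tested.

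**Figure D3:**
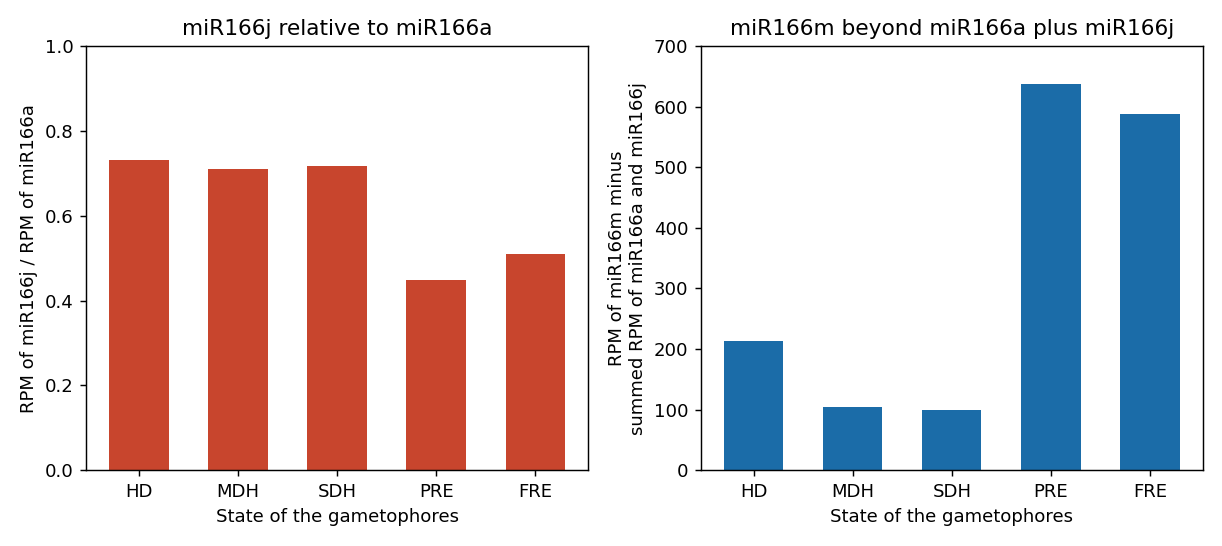
Left, the ratio of the RPM of miR166j to that of miR166a in each state. Right, the RPM of miR166m minus the summed RPM of miR166a and miR166j in each state. Bars are single authors' values and start at 0. The ratio is 0.709 to 0.731 in HD, MDH and SDH against 0.448 and 0.509 in PRE and FRE, and the excess of miR166m is 98.8 to 214 RPM against 638 and 587 RPM.

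The spread among profiles of 1 family can be set beside that of other families. There were 14 families with at least 2 sets of names at a mean of 100 RPM or more. By the range of log2 fold changes within a family, miR166 took place 13 of 14 in MDH against HD (0.05) and 13 of 14 in SDH against HD (0.06). It took place 7 of 14 in PRE against HD (0.79), 6 of 14 in FRE against HD (0.59) and 2 of 14 in PRE against SDH (0.82). By this measure the family was among the most uniform while drying and near the most divided in the step from desiccation to partial recovery. miR166 had 3 sets, and the ranges were not adjusted for the number of sets in a family, with which a range can widen.

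In the authors' deposited table for PRE against HD, miR166j, miR166k and miR166l were the marked members, with a log2 fold change of -1.21 for miR166j. No member was marked in the authors' deposited tables for MDH, SDH or FRE. The authors' p for the 13 names was at most 1.27e-102 and 7.72e-30 in the tables for MDH and SDH, and 8.66e-195 and 1.41e-113 in those for PRE and FRE, from a test the headers do not name. The authors' deposited table gives 1 value per state and a nominal total of 10000000 in each, so these p-values carry no spread between replicates. Of all names in the authors' deposited tables, 25.5% and 13.8% were marked as lower in MDH and SDH, and 18.8% and 11.6% in PRE and FRE.

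The miRNAs most like each profile were sought by the root mean square difference of log2(RPM + 1) over the 5 states, after subtracting each name's own mean. There were 159 candidates of other families with at least 10 RPM in their highest state, counted once where identical. For miR166j the nearest were miR156a and miR156c, near-identical names of a family that targets SPL transcription factors (0.08 for both), and miR529d, of a family with the same kind of target (0.19). miR156a stood at 47234 RPM in HD, 31565 and 37437 in MDH and SDH, and 19250 and 21727 in PRE and FRE. miR166j lay farther from miR166a (0.30) and from miR166m (0.35) than from miR156a. All of these differences are over 5 states and describe shape alone.

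For miR166a the nearest names were miR1048-5p (0.11), miR1222a (0.11) and miR1074 (0.12), which are moss miRNAs. miR1048-5p stood at 287 RPM in HD, 215 and 274 in MDH and SDH, and 227 and 202 in PRE and FRE. For miR166m they were miR1045 (0.11), miR1048-5p (0.12) and miR1222a (0.13), although miR166a itself was nearer to it (0.06). miR1045 stood at 1963, 1327, 1585, 1403 and 1807 RPM in HD, MDH, SDH, PRE and FRE. For the summed level of the 13 names the nearest were miR1222a (0.10), miR1048-5p (0.11) and miR1074 (0.12).

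**Figure D4:**
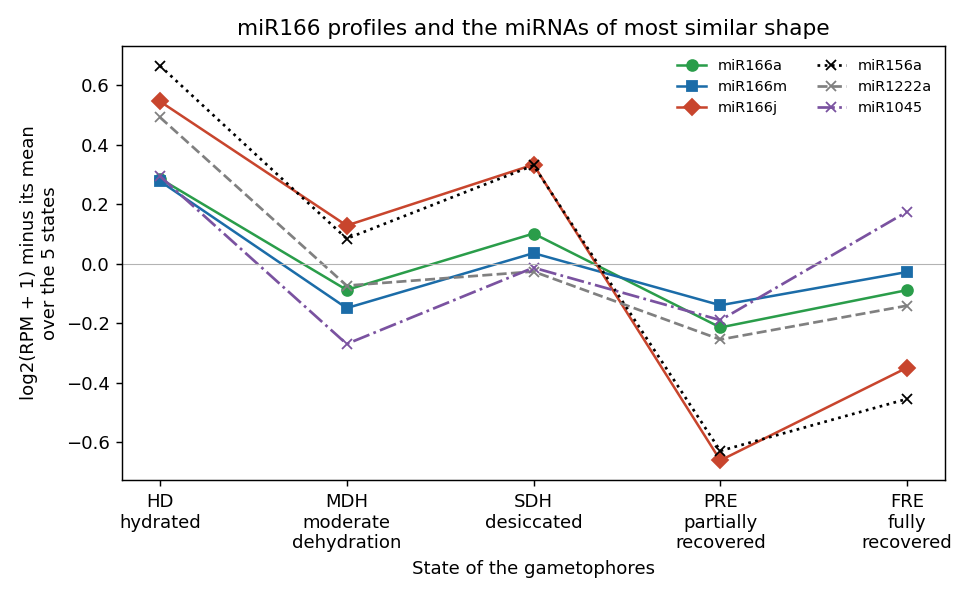
Shape of each profile, as log2(RPM + 1) minus its mean over the 5 states (vertical axis), by state (horizontal axis), for miR166a, miR166m and miR166j and for miR156a, miR1222a and miR1045. The lines of miR166j and miR156a run close together, at a root mean square difference of 0.08, and apart from that of miR166a, at 0.30 from miR166j.

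Other families that act on developmental transcription factors, or that start the TAS3 small RNAs which do, gave a mixed picture. The list held 45 names, of which 43 were tested. They comprised miR156, miR529 and miR535, which are related in sequence, with miR160 and miR1219, which target auxin response factors, miR171, miR319, miR390, which starts TAS3 small RNAs, miR534 and miR538. In MDH against HD 3 of 43 were higher and 10 lower. Over all 209 names tested 23 were higher and 51 lower, or 24.4% lower, so the list's share of lower names was near the background. The median was -0.58 on the log2 scale, against -0.37 over all names tested. In SDH it was 1 higher and 3 lower of 43, against 40 higher and 29 lower of all 215 names, with medians of -0.34 and 0.02.

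In PRE against HD 3 of the 43 names were higher and 14 lower, against 46 higher and 40 lower of all 213 names, with medians of -0.12 over the list and -0.19 over all names. The lower names were all 3 of miR156 (family median -1.29), all 4 of miR535 (-1.40), all 4 of miR390 (-1.46), 2 of miR529 and 1 of miR319. The 3 higher names were 2 others of miR529 and the 1 tested name of miR534. The miR534 names were scarce, summing to 0.9 RPM in HD and 13.5 in PRE. Near-identical copies such as miR156a and miR156c were each counted, in the list and over all names, so these counts are not of separate observations. The miR166a and miR166m profiles, at -0.50 and -0.42, lay above the medians of miR156, miR535 and miR390. Both lay below those of miR529 (-0.10), miR319 (-0.24), miR160 (0.18), miR171 (0.23), miR538 (0.21), miR1219 (0.05) and miR534 (3.01). miR166j, at -1.21, also lay above the medians of miR156, miR535 and miR390. These medians weigh scarce and abundant names alike. The summed level of miR319 went from 10745 RPM in HD to 4058 in PRE, and that of the scarce miR160 from 119 to 159. In FRE against HD 6 names of the list were higher and 8 lower, against 32 higher and 25 lower of all 209 names, with medians of -0.14 and -0.10. The 8 lower were all 3 of miR156 (family median -1.12), 3 of 4 of miR390 (-1.31) and 2 of 7 of miR529 (-0.22). The 6 higher were 3 of 4 of miR1219 (1.06), 2 of 7 of miR529 and the 1 tested name of miR534 (2.56). Of these, miR534 was near the floor, its names summing to 0.9 RPM in HD and 9.6 in FRE. The miR1219 names summed to 40.3 and 86 RPM. All these comparisons share the HD value, so the same names standing out in several of them is not separate evidence.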

How the data were processed

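Groups were taken from the sample titles. Per the labels' protocols, RNA fragments of 18 to 30 nt were enriched, adaptors ligated, and the cDNA amplified by PCR. The sources used here do not give the aligner, genome build, miRNA reference or treatment of reads matching several names. Of 8 tables, 4 hold RPM deposited by the authors, in steps of 0.1, for HD and 1 other state, and were joined by name, the HD values being identical. The other 4 hold, per the file headers, the authors' total and expressed values, treated as a score because the deposited total is 10000000 throughout, with their log2 fold change, p-value and mark. The deposited log2 values equal the log2 ratio of RPM, and marks follow 2-fold with p under 0.05. Depth is unknown, so no interval was computed.

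A pseudocount of 1 RPM, which understates changes of scarce names, a minimum of 3 RPM and a 2-fold threshold were applied to all 280 names with pandas 2.3.3 under Python 3.11.15. The 2-fold call was tried on simulated data with planted changes well past the threshold, which says nothing of differences near 2-fold or of replicate error. The designs allowed for edgeR on counts per library, which was not used because there is 1 value per state. All 13 miR166 names were named, with the 3 names of other families nearest in shape to each profile. Members, lists and thresholds were chosen with earlier results of these data known. Alternatives tried were no pseudocount or 10 RPM, no minimum or 30 RPM, 1.5-fold, median-of-ratios scaling, 1 value per set of copies and the authors' marks. No mature sequence was used here.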

Additional observations from a re-analysis of the deposited data

How the results depend on the processing

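The number of miR166 names past 2-fold was 3 in PRE against HD and 0 in the other 6 comparisons. It was unchanged without a pseudocount or with 10 RPM, with no minimum or 30 RPM, median-of-ratios scaling and the authors' marks, the last available for comparisons with HD. It became 1 in PRE against HD with 1 value per set of copies, where fewer names are counted. With a threshold of 1.5-fold it became 3 in FRE against HD and 3 in PRE against SDH. A sum or single name is said to move here if its log2 fold change shifts by over 0.1, since no interval could be had. The summed log2 fold change was -0.39 in MDH, -0.59 in PRE and -0.44 in FRE against HD, and -0.038, -0.47 and -0.32 with median-of-ratios scaling. That scaling also took SDH against MDH from 0.19 to -0.19 and PRE against SDH from -0.39 to -0.25. The shift comes from the scaling factors, lowest for MDH at 0.851 and highest for SDH at 1.11. These factors were computed with the miR166 copies included. Of the 63 other values for miR166a, miR166j and miR166m, 48 moved by less and 15, all under this scaling, by more. Alternatives for the 3 comparisons without HD and for single names were chosen after seeing the data. No paired analysis was possible because the columns hold 1 value per state and carry no replicate number, and for the same reason no replicate could be left out.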
